A study of Mus musculus with 6 samples.

Results

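The genes described here encode the SLC25 family, the carriers that move nucleotides, phosphate, organic acids, amino acids, acylcarnitines and cofactors across the inner membrane of the mitochondrion. They were taken as every row of the deposited count table whose symbol starts with Slc25a and a digit, with names containing -ps left out. This gave 47 of the 35976 genes in the table. Of these, 42 reached a mean of at least 0.5 CPM (counts per 1000000) in 1 of the groups and are described, and 39 had enough counts to be tested. The libraries came from mouse hearts of wild-type genotype. In the edited group the treatment was AAV-MYL2-TadA8e-Sauri-U6-Camk2d sgRNA7, an adeno-associated virus with the adenine base editor deaminase TadA8e, a Cas9 named Sauri, and a guide called sgRNA7 directed at Camk2d, the gene of the main cardiac calcium/calmodulin-dependent kinase. The control group had no treatment, so virus, editor and edit cannot be told apart here. MYL2 in the construct's name is the gene of a myosin light chain of ventricular muscle, whereas the RNA came from heart tissue with all of its cell types. Age, dose and time after injection are not given in the labels. Each group held 3 libraries, with 17062412 to 23097998 counts per library. Whether each library comes from an animal of its own is not stated, and the p-values cover only the spread among the libraries, which may be in part technical.

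An SLC25 carrier typically exchanges one solute for another and opens in turn to either side of the inner membrane. Heart muscle makes nearly all of its ATP in mitochondria, so the carriers that bring in ADP and phosphate and send out ATP are among the most abundant proteins of that membrane. Other carriers belong to the malate-aspartate shuttle, which moves reducing equivalents of cytosolic NADH inward, to the carnitine shuttle, which brings in fatty acids, or to the supply of cofactors, iron, glutathione and nucleotides.

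Camk2d, read first as a check of the labels, stood at 138, 130 and 164 CPM in edited hearts, against 226, 220 and 224 CPM in control hearts. All edited libraries lay below all controls, with a log2 change of -0.63 (SE 0.075, adjusted p = 4.76e-04, edgeR quasi-likelihood test). A two-sided exact permutation test over 20 arrangements gave p = 0.1, the smallest that 3 against 3 allows. CPM are counts per 1000000 of a library total adjusted by TMM normalization, and each log2 change is edited over control, with adjusted p-values from edgeR's quasi-likelihood test over all 14879 tested genes and a threshold of 0.05.

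Of the 39 tested carriers, 4 fell and 1 rose in edited hearts, all by modest amounts. The falls were in Slc25a4, the ADP/ATP exchanger of muscle, Slc25a3, the phosphate carrier, Slc25a11, the oxoglutarate/malate carrier, and Slc25a34, whose substrate is not firmly known. The rise was in Slc25a1, the citrate carrier. The falls make up 10.3% of the tested carriers, where 4.74% of all tested genes fell, and the rise 2.56%, where 4.93% of all tested genes rose. Together 5 of 39 were past the threshold (12.8%), where 9.66% of all tested genes were. With upper-quartile scaling 2 carriers fell and 1 rose, beside 3.57% and 5.71% of all tested genes. When control 3 was left out Slc25a11 alone fell and 0 rose, where 1.31% of all tested genes fell and 1.24% rose. With either control 1 or edited 3 left out 2 fell and 0 rose. Over all tested genes 2.39% fell and 2.68% rose in the former fit, 2.15% and 2.72% in the latter. When control 2 was left out 5 fell and 0 rose, beside 3.91% and 4.36% of all tested genes (edgeR). Falls were rarer over all tested genes in each of these fits, so a smaller count need not be particular to the carriers. The median log2 change was -0.05 over the tested carriers and 0 over all tested genes. Another 34 carriers were not past the threshold, with log2 changes of -0.44 to 0.46 and adjusted p of 0.0658 to 0.973. For 31 of these the 95% interval excluded a 1.5-fold change in either direction, and for Slc25a14, Slc25a29 and Slc25a53, all at low levels, it did not.

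**Figure D1:**
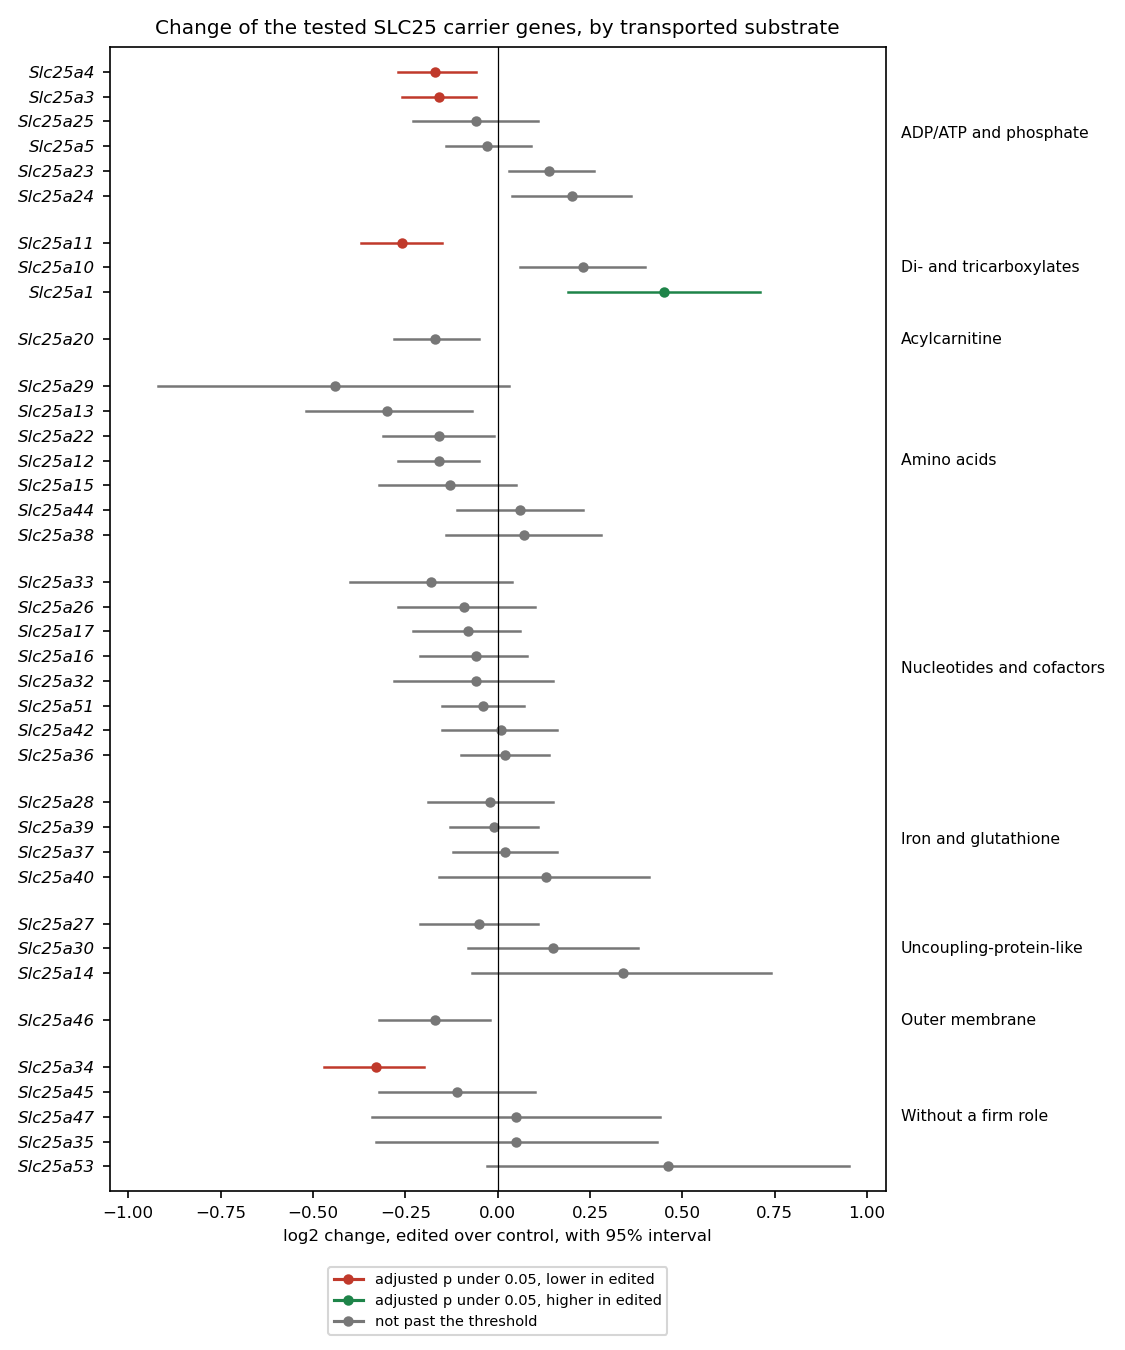
Points are log2 changes, edited over control, of tested SLC25 carrier genes, with 95% intervals as lines, grouped by what they transport. Slc25a4, Slc25a3, Slc25a11 and Slc25a34 (red) were past the threshold and lower in edited hearts, Slc25a1 (green) was past it and higher, and the others (grey) were not.

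Per kilobase of exon, 3 genes held most of the level of the family. Slc25a4 averaged 2769 CPM per kilobase in edited hearts and 3109 in control hearts, Slc25a3 808 and 904, and Slc25a5, the ADP/ATP exchanger typical of dividing cells, 326 and 333. Together they made up 87.2 ± 0.238% of the summed per-kilobase level of the family in edited hearts and 87.4 ± 0.346% in control hearts (SD, n = 3 each), and these shares overlapped between groups. The next were Slc25a11 at 136 and 164, Slc25a20, the carnitine/acylcarnitine carrier, at 88.0 and 98.8, and Slc25a39, a glutathione carrier, at 36.6 and 36.8 CPM per kilobase. The lowest of the 42 carriers at 0.5 CPM or more was Slc25a18, at 0.207 and 0.0735 CPM per kilobase. Without correction for length, the carriers summed to 6498, 6644 and 6569 CPM in edited hearts, against 7434, 6976 and 7355 CPM in control hearts, so every edited library lay below every control. Without Slc25a4, Slc25a3 and Slc25a5 the sums were 1747, 1721 and 1716 CPM in edited hearts, against 1866, 1846 and 1885 CPM in control hearts, and again did not overlap. Such sums follow the most abundant genes. Of those left, Slc25a11 alone averaged 273 CPM in edited and 328 CPM in control hearts, while the median log2 change over all tested carriers was -0.05.

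**Figure D2:**
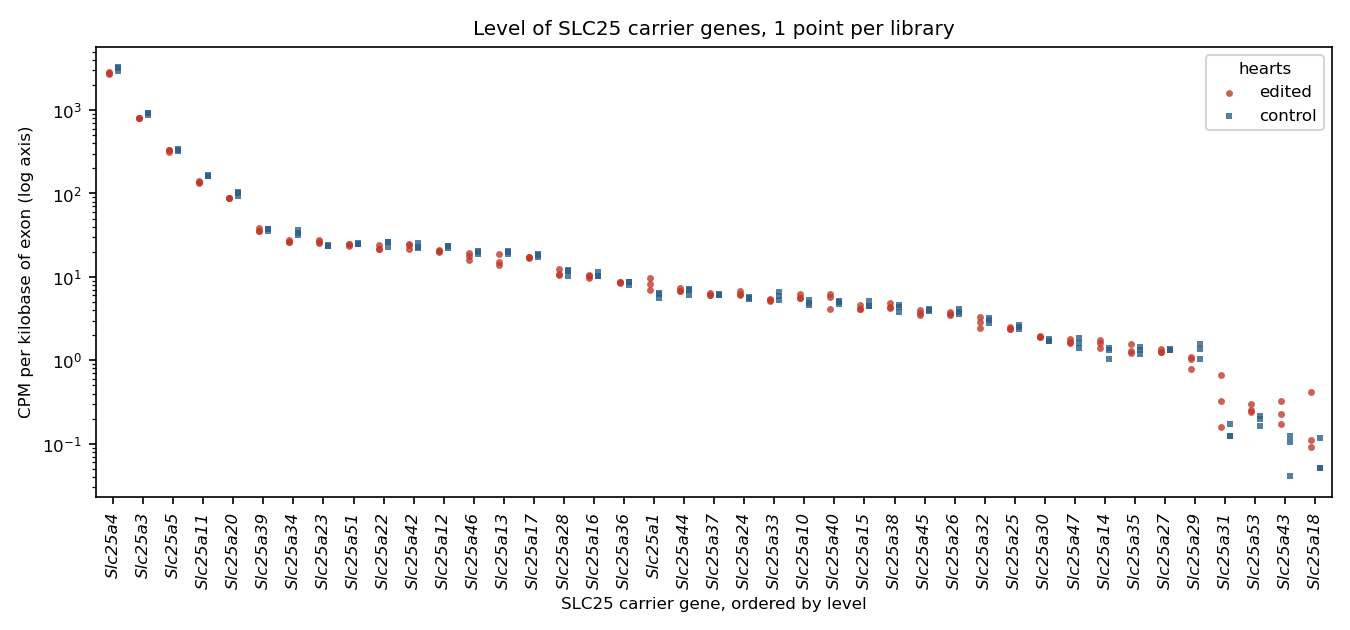
CPM per kilobase of exon (log axis) of SLC25 carrier genes at or above 0.5 CPM in a group, 1 point per library, edited (circles) left of control (squares). Slc25a4, Slc25a3 and Slc25a5 lie above all others in every library, and the points of the groups stay close for most genes.

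Among the carriers of ADP, ATP and phosphate, 2 of 6 tested genes fell and 0 rose, where 4.74% of all tested genes fell and 4.93% rose. Both that fell lie at 50 CPM or more, where 10.4% of all tested genes fell and 3.22% rose. Slc25a24 and Slc25a25 lie below that level. Slc25a4 had 2984, 3130 and 3088 CPM in edited hearts, against 3591, 3240 and 3504 CPM in control hearts. The edited libraries were all lower, by a narrow margin to control 2. Its log2 change was -0.17 (SE 0.05, adjusted p = 0.049, edgeR), which left 89.1% of the control level. Slc25a3, which imports the phosphate used by ATP synthase, had 1338, 1360 and 1360 CPM in edited hearts, against 1543, 1475 and 1523 CPM in control hearts. All edited libraries lay below all controls, with a log2 change of -0.16 (SE 0.045, adjusted p = 0.0381, edgeR). Both calls were lost in many settings: without edited 1, edited 3, control 1 or control 3 the adjusted p ran from 0.0923 to 0.256 for Slc25a4 and from 0.0712 to 0.202 for Slc25a3, and with upper-quartile scaling it was 0.108 and 0.0876. The log2 change of Slc25a4 was -0.08 with control 2 as the only control and -0.10 with Myl7, a gene of atrial muscle, in the model.

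Slc25a5, the second exchanger of ADP and ATP, was not past the threshold. It had 430, 432 and 405 CPM in edited hearts, against 434, 414 and 443 CPM in control hearts, and the groups overlapped (log2 -0.03, 95% interval -0.14 to 0.09). The annotation holds 3 pseudogenes that match Slc25a5 at 95% identity or more over at least 300 bases, so its counts may include or lack reads of these copies. Slc25a4 made up 89.0%, 89.4% and 89.9% of the per-kilobase level of the ADP/ATP exchangers Slc25a4, Slc25a5 and Slc25a31 in edited hearts, against 90.6%, 90.1% and 90.2% in control hearts. The share was lower in every edited library, and was not tested.

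The calcium-regulated ATP-Mg/phosphate carriers set the adenine nucleotide pool of the matrix. Slc25a23, the one with the highest level here, had 87.7, 93.6 and 88.5 CPM in edited hearts, against 80.9, 82.7 and 80.6 CPM in control hearts. Slc25a24 had 21.2, 20.6 and 23.2 CPM in edited hearts, against 19.3, 18.7 and 18.6 CPM in control hearts. In both, all edited libraries were above all controls, but neither was past the threshold (log2 0.14, adjusted p = 0.115, and log2 0.20, adjusted p = 0.118, edgeR). Slc25a24 was called higher with limma voom (adjusted p = 0.0416). Slc25a25 had 14.8, 14.9 and 15.6 CPM in edited hearts, against 15.9, 15.01 and 16.4 CPM in control hearts, with overlap, and 6.46% of its exon bases are shared with Naif1 on the opposite strand. Slc25a23 held 74.9 ± 1.49% of the per-kilobase level of this subfamily in edited hearts and 74.6 ± 0.541% in control hearts (SD, n = 3 each).

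Carriers of di- and tricarboxylates went both ways. Slc25a11, the oxoglutarate/malate carrier of the malate-aspartate shuttle, had 281, 274 and 264 CPM in edited hearts, against 333.5, 326 and 324 CPM in control hearts. The gap between the groups was wider than the range within either one. The log2 change was -0.26 (SE 0.051, adjusted p = 0.0059, edgeR), and this call held when any 1 library was left out. It was lost when control 2 was the only control (adjusted p = 0.229) and with Myl7, an atrial gene, as a covariate (adjusted p = 0.113), though the log2 change was -0.26 in both. Of the exon bases of Slc25a11, 6.64% are shared with Rnf167 on the opposite strand, and whether the counting used strand is not given in the sources used here.

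Slc25a1, which exports citrate for lipid synthesis in the cytosol, had 11.6, 16.3 and 13.9 CPM in edited hearts, against 10.7, 10.3 and 9.40 CPM in control hearts. All edited libraries lay above all controls, but edited 1 only just. The log2 change was 0.45 (SE 0.12, adjusted p = 0.0321, edgeR). The call was lost without edited 2 (adjusted p = 0.081), edited 3 (0.0938), control 1 (0.0779), control 2 (0.0775) or control 3 (0.171). Slc25a10, the dicarboxylate carrier, had 22.4, 24.7 and 22.2 CPM in edited hearts, against 18.4, 19.2 and 21.4 CPM in control hearts. Its groups did not overlap, and it was not past the threshold (log2 0.23, adjusted p = 0.0921, edgeR). Slc25a21, the oxodicarboxylate carrier, had at most 1 count in a library.

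**Figure D3:**
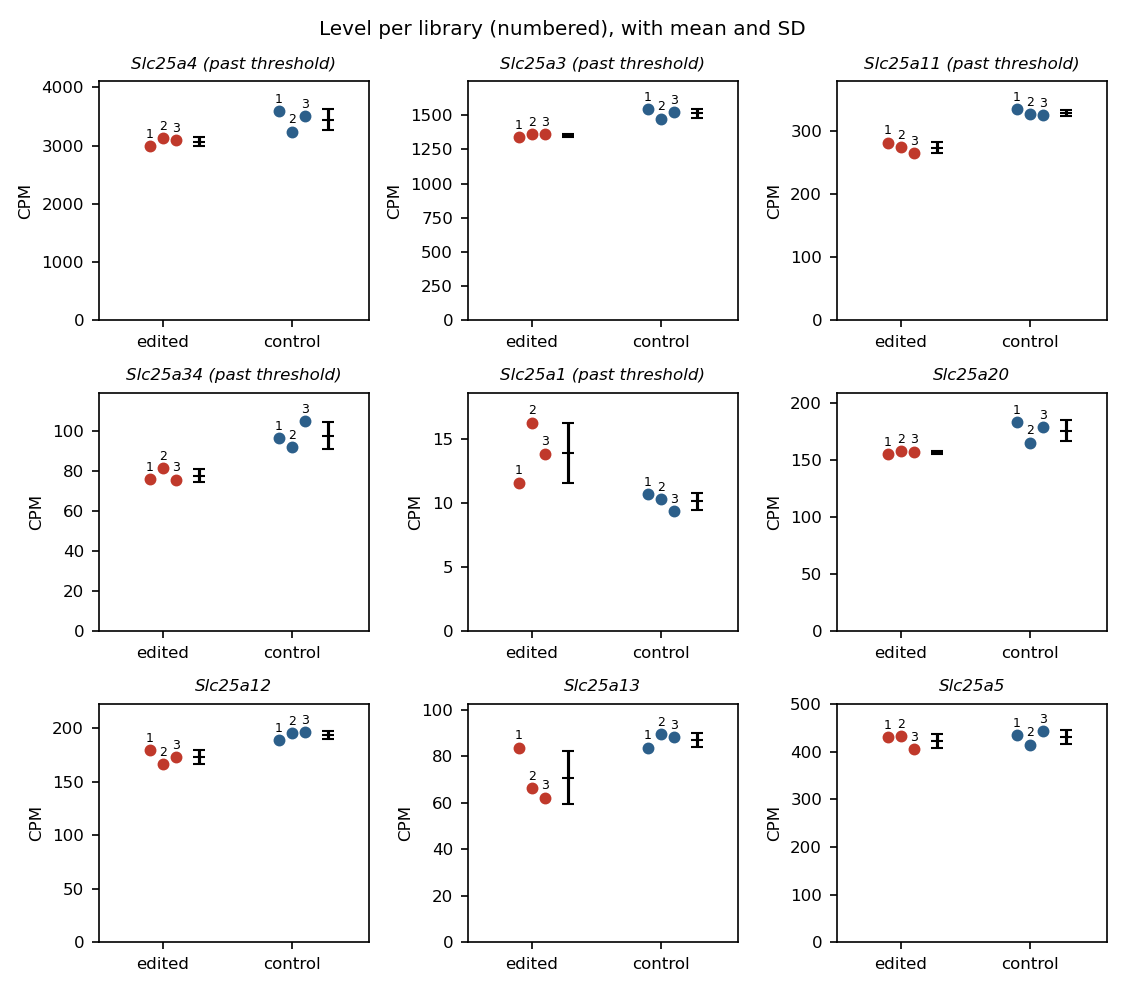
CPM in each library, numbered by replicate, of 9 SLC25 carrier genes in edited (red, left) and control (blue, right) hearts, with mean and SD beside the points and axes from 0. The edited points lie below the controls for Slc25a4, Slc25a3, Slc25a11, Slc25a34, Slc25a20 and Slc25a12, above them for Slc25a1, and among them for Slc25a5; for Slc25a13 edited 1 is level with control 1.

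No tested amino acid carrier was past the threshold (0 of 7), although 3 of them had an unadjusted p below 0.05, all with lower values in edited hearts (edgeR). Of all 14879 tested genes 3633 had such a p, 1745 of them with lower values. Of the 3755 at 50 CPM or more, the level of these 3 carriers, 876 were lower with such a p. Slc25a12 (aralar) and Slc25a13 (citrin) exchange aspartate for glutamate under the control of calcium, and are the other carriers of the malate-aspartate shuttle. Slc25a12 had 179, 166 and 173 CPM in edited hearts, against 189, 195 and 196 CPM in control hearts. Slc25a13 had 83.7, 66.2 and 62.3 CPM in edited hearts, against 83.7, 89.5 and 88.1 CPM in control hearts. Slc25a12 was lower in every edited library (log2 -0.16, adjusted p = 0.0658, edgeR), while for Slc25a13 edited 1 stood at the level of control 1 and the other edited libraries well below (log2 -0.30, adjusted p = 0.0985, edgeR). Slc25a13 was called in 4 of the 16 alternatives: without edited 1, with a log2 change of -0.44 (adjusted p = 4.79e-04), with no filter on low counts (0.00233), with DESeq2 (0.0243) and with limma voom (0.0214). Slc25a12 was called in 1 of them, with limma voom (adjusted p = 0.0329). Slc25a12 held 53.0%, 56.9% and 59.4% of the per-kilobase level of the pair in edited hearts, against 54.3%, 53.4% and 53.9% in control hearts, with overlap.

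Slc25a22, a glutamate carrier, had 64.6, 63.6 and 71.2 CPM in edited hearts, against 78.4, 67.6 and 77.3 CPM in control hearts (log2 -0.16, adjusted p = 0.167, edgeR), and its groups overlapped. The ornithine carrier Slc25a15 (log2 -0.13), the glycine carrier Slc25a38 (0.07), the branched-chain amino acid carrier Slc25a44 (0.06) and the basic amino acid carrier Slc25a29 (-0.44, 95% interval -0.92 to 0.03) were not past the threshold. Slc25a29 was scarce, at 1.91 ± 0.304 CPM in edited hearts and 2.60 ± 0.54 CPM in control hearts (SD, n = 3 each). In the glutamate carrier Slc25a18, edited 1 had 30 counts and no other library more than 6. It was too sparse to be tested with the other genes.

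Slc25a20 trades acylcarnitine for carnitine and so brings fatty acids to beta-oxidation. It had 155, 158 and 158 CPM in edited hearts, against 184, 166 and 179 CPM in control hearts. Every edited library was lower than every control, and the log2 change of -0.17 (SE 0.054) was not past the threshold (adjusted p = 0.0682, edgeR). It was called without control 2 (adjusted p = 0.0329) and with limma voom (0.0294).

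Of the 9 carriers of nucleotides and cofactors, 0 were past the threshold and 0 had an unadjusted p below 0.05 (edgeR), where 3633 of all 14879 tested genes did. Their log2 changes were -0.18 to 0.02. Slc25a36, a pyrimidine nucleotide carrier, had 61.8, 61.9 and 60.5 CPM in edited hearts, against 61.7, 61.7 and 57.9 CPM in control hearts. Slc25a33, its paralog, had 9.55, 9.90 and 10.2 CPM in edited hearts, against 10.1, 12.4 and 11.2 CPM in control hearts. Both overlapped between groups, and Slc25a36, like the glutathione carrier paralog Slc25a40, has 1 near-identical pseudogene. The highest level of this group in CPM was that of Slc25a51, the NAD carrier, at 111 ± 3.74 CPM in edited hearts and 115 ± 2.1 CPM in control hearts (SD, n = 3 each; log2 -0.04, 95% interval -0.15 to 0.07). The coenzyme A carrier Slc25a42 (log2 0.01), Slc25a16, which is linked to coenzyme A transport (-0.06), the S-adenosylmethionine carrier Slc25a26 (-0.09), the flavin and folate carrier Slc25a32 (-0.06) and the peroxisomal carrier Slc25a17 (-0.08) each had a 95% interval that held 0.

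The carriers of iron and glutathione likewise had 0 of 4 past the threshold, and 0 had an unadjusted p below 0.05 (edgeR), where 3633 of all 14879 tested genes did. The mitoferrin Slc25a37, which supplies iron for haem in red cell precursors, had 28.4, 30.3 and 28.2 CPM in edited hearts, against 29.3, 28.4 and 28.03 CPM in control hearts. Slc25a28, the mitoferrin of other tissues, had 26.8, 30.9 and 27.3 CPM in edited hearts, against 30.2, 26.1 and 29.8 CPM in control hearts. Neither separated the groups, and 13.2% of the exon bases of Slc25a28 are shared with BC037704 on the opposite strand. The summed level of 7 markers of red cells was 790 to 1232 CPM in edited hearts and 989 to 1279 CPM in control hearts, with 0 past the threshold (edgeR). Slc25a39 had 97.1, 105 and 98.1 CPM in edited hearts, against 103.5, 96.5 and 102 CPM in control hearts, and its paralog Slc25a40 had 16.8, 12.3 and 18.5 CPM in edited hearts, against 15.1, 13.9 and 14.7 CPM in control hearts. Edited 2 was the lowest library for Slc25a40 and the highest for Slc25a39.

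The remaining carriers held the fall of Slc25a34, with 75.9, 81.3 and 75.8 CPM in edited hearts, against 96.4, 91.9 and 105 CPM in control hearts. Its groups were well apart. The log2 change was -0.33 (SE 0.062, adjusted p = 0.00501, edgeR), or 79.5% of the control level, and the call was lost without control 3 (adjusted p = 0.0562), with control 2 as the only control (0.313) and with Myl7 in the model (0.294). Slc25a46, an outer membrane protein that shapes mitochondria, was called lower without edited 1 (edgeR). With all libraries it was at 77.9 ± 7.3 CPM in edited hearts and 87.7 ± 3.55 CPM in control hearts (SD, n = 3 each). There it was not past the threshold (log2 -0.17, adjusted p = 0.149, edgeR). The uncoupling-protein-like carriers Slc25a14 (log2 0.34), Slc25a30 (0.15) and Slc25a27 (-0.05) were not past it either, nor were Slc25a45 (-0.11), Slc25a47 (0.05), Slc25a35 (0.05) and Slc25a53 (0.46, 95% interval -0.03 to 0.95).

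Besides Slc25a18, 2 other carriers reached 0.5 CPM in a group but were too sparse to be tested. Slc25a31, the ADP/ATP exchanger of germ cells, had 16, 6 and 25 counts in edited hearts, against 6, 5 and 5 in control hearts. Slc25a43 had 12, 17 and 12 counts in edited hearts, against 2, 7 and 6 in control hearts. All 3 passed the level rule through the edited group alone, so their direction follows from that rule. Just outside the rule was Slc25a2, with means of 0.448 CPM in edited hearts and 0.329 in control hearts before TMM scaling, and just inside it Slc25a18, with 0.645 and 0.219. Slc25a41 had at most 2 counts in a library, Slc25a48 at most 1, and Slc25a54 had 0 in every library.

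Groups did not overlap for 14 of the tested carriers, of which 7 were lower and 7 higher in edited hearts, 17.9% in each direction, where 14.7% of all tested genes were lower and 14.6% higher without overlap. The lower ones were Slc25a4, Slc25a3, Slc25a11, Slc25a34, Slc25a20, Slc25a12 and, by a gap of under 0.1 CPM, Slc25a13. The higher ones were Slc25a1, Slc25a10, Slc25a23, Slc25a24, Slc25a14, Slc25a30 and Slc25a53. The lower ones were all abundant and the higher ones, apart from Slc25a23, were not. At a mean of 50 CPM or more, a split chosen after the values were seen, 4 of 15 carriers fell (26.7%) and 0 rose, where 10.4% of all tested genes at that level fell and 3.22% rose, and the medians were -0.16 and -0.04. At that level 7 carriers were lower without overlap (46.7%) and 1 higher (6.67%), where 27.2% and 8.76% of all genes were. Below 50 CPM 0 of 24 fell and 1 rose (4.17%), with a median of 0, where 2.83% of all tested genes at that level fell and 5.5% rose, with a median of 0.03. Across the 39 carriers Spearman's rho between the log2 change and the level was -0.42, and across all 14879 tested genes it was -0.23; genes of the same libraries are not independent replicates, and no test was made.

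**Figure D4:**
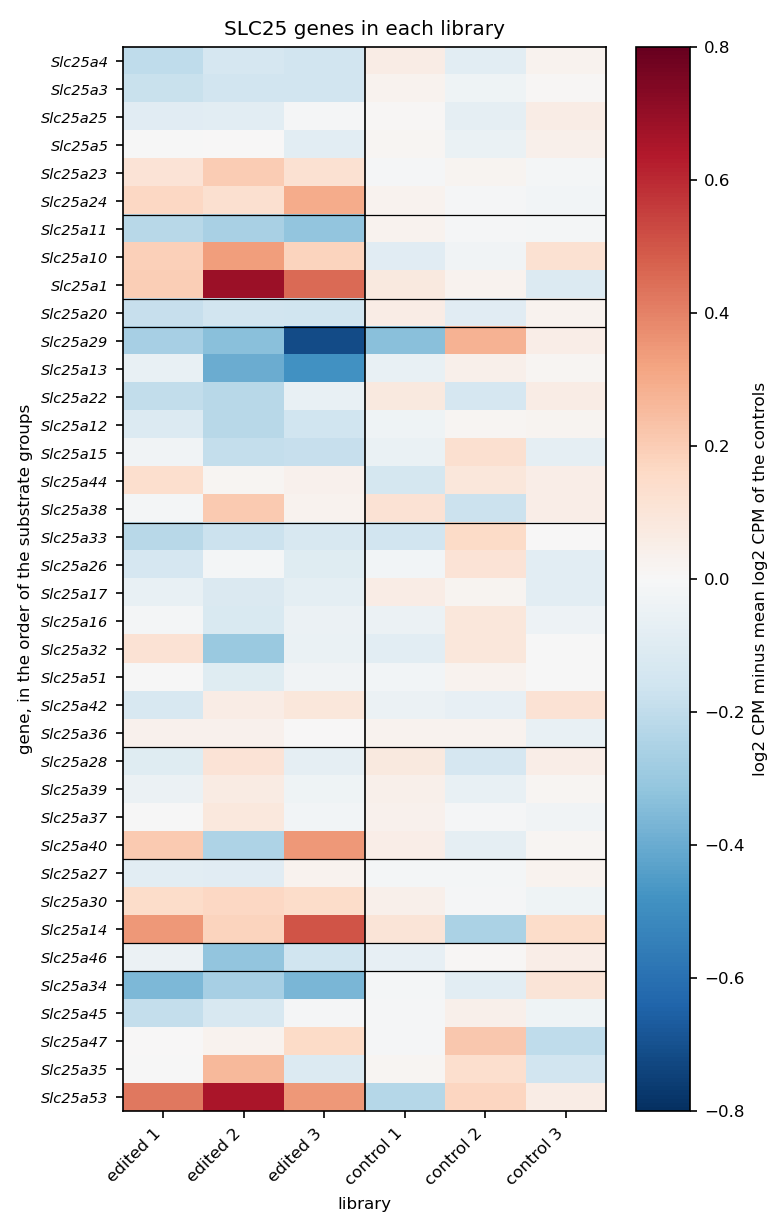
Each cell is the log2 CPM of 1 SLC25 carrier gene in 1 library minus the mean log2 CPM of the control libraries, for tested genes in the order of their substrate groups (edited libraries left, control libraries right). The rows that are blue in every edited library include Slc25a4, Slc25a3, Slc25a11, Slc25a20, Slc25a12 and Slc25a34, those that are red include Slc25a1, Slc25a10, Slc25a23, Slc25a24, Slc25a14, Slc25a30 and Slc25a53, and edited 1 stands apart from the other edited libraries in Slc25a13.

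Markers of ventricular muscle were read from the same fit. Of 6 such markers, 4 fell and 0 rose (Myh6, Tnni3, Tnnt2 and Myl3), where 10.4% of all tested genes at 50 CPM or more fell, and their summed level was 59190 to 63080 CPM in edited hearts, against 70160 to 72830 CPM in control hearts. In RNA from whole tissue, fewer muscle cells and less of these RNAs per cell cannot be told apart. The summed level of 5 atrial markers was 1164 to 2679 CPM in edited hearts, and 42.2, 1881 and 20.2 CPM in controls 1, 2 and 3, with 0 of 4 tested markers past the threshold (edgeR). These markers were scarce in controls 1 and 3. Bmp10 alone was also near 0 in edited hearts, with 0, 0 and 2 counts, against 1, 1933 and 1 in controls 1, 2 and 3. When control 2 was the only control, with a lone library assumed to vary like the others, the counts of carriers called lower and higher were 0 and 0 (edgeR), among 53 and 29 of all genes. With Myl7 in the model they were likewise 0 and 0, among 82 and 46 of all genes. Of 6 fibroblast markers 1 rose and of 6 mesothelial markers 4 rose and 1 fell, and 0 of 5 endothelial and 0 of 5 macrophage markers were past the threshold (edgeR). The part of muscle content and atrial tissue in the changes of the carriers was not tested beyond these settings.

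The 5 carriers past the threshold lie on 5 chromosomes, in mm10 coordinates of the deposited table and all on the minus strand: Slc25a4 on chromosome 8 from 46207339 to 46211009, Slc25a3 on chromosome 10 from 91116578 to 91124001, Slc25a11 on chromosome 11 from 70644019 to 70647423, Slc25a34 on chromosome 4 from 141618819 to 141624002, and Slc25a1 on chromosome 16 from 17925211 to 17928219. Bases before their RefSeq starts (GRCm38.p6, the same assembly as mm10) are printed 5′ to 3′ on the gene's strand. They show, side by side, the promoters of 3 of the carriers that fell and of the citrate carrier that rose. Capitals mark the 1 motif match found in them. That of Slc25a11 lies within the gene of the deposited table, between exons, since its RefSeq start is further in. That of Slc25a3 stops where the deposited annotation begins an exon, and that of Slc25a34 is not shown because most of it lies in such an exon.
Slc25a4, chr8:46211063-46211312, minus strand: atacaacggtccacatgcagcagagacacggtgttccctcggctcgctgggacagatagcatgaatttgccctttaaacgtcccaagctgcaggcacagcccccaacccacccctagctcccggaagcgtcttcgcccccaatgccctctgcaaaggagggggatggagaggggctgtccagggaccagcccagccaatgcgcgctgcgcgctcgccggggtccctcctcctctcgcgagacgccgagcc
Slc25a3, chr10:91124002-91124217, minus strand: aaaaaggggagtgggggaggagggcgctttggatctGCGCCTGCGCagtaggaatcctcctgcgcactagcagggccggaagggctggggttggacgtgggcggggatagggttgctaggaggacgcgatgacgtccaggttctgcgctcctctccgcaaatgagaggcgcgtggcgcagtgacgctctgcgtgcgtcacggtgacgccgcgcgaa
Slc25a11, chr11:70647040-70647289, minus strand: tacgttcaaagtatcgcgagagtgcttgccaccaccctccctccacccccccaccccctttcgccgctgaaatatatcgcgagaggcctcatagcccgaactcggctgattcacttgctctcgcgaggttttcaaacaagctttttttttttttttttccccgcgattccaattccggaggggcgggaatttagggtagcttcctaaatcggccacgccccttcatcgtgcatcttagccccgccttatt
Slc25a1, chr16:17928220-17928469, minus strand: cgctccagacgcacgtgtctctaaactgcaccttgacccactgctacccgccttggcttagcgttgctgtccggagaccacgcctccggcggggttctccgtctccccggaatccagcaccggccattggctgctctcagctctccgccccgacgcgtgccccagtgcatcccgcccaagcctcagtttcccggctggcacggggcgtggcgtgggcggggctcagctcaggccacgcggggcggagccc

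In windows from 250 bases before to 50 bases after the RefSeq start, 5 motifs were searched by their letters on both strands. Of the 47 carriers, 36 had a window. Entries missing from the promoter table included Slc25a2, Slc25a26, Slc25a27, Slc25a32, Slc25a35, Slc25a37, Slc25a41, Slc25a44, Slc25a46 and Slc25a51. The extended half-site of the oestrogen-related receptors, TNAAGGTCA, was in the windows of 0 of 36 carriers and of 1.43% of all 27025 genes. The NRF1 site, GCGCA and GCGC with 1 base of any kind between them, was in those of 2 carriers (5.56%), Slc25a3 and Slc25a31, and of 5.19% of all genes. The ETS site CCGGAAGT was in that of Slc25a20 (2.78%, against 4.31% of all genes). The sterol response element TCACNCCAC was in that of Slc25a18 (2.78%, against 1.44%). A pattern looser than the MEF2 site, CTA and TAG with 4 bases of any kind between them, was in those of Slc25a10 and Slc25a22 (5.56%, against 4.23%). The MEF2 site has only A or T at those 4 bases, and neither match does. No motif overlapped another. Slc25a4, Slc25a11, Slc25a34 and Slc25a1 had no match to any of the 5 in this window. These are matches of letters, and the carriers that fell did not share one.

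Genes that work beside the carriers were counted from lists drawn from textbook roles, with earlier results of these data known. Their counts stand against 4.74% lower and 4.93% higher over all tested genes, and 10.4% lower and 3.22% higher over those at 50 CPM or more, where most of the partner genes that fell lie. Of the enzymes of the malate-aspartate and glycerol phosphate shuttles, 4 of 7 fell and 0 rose. Got2, the mitochondrial aspartate aminotransferase, had 851, 843 and 845 CPM in edited hearts, against 995, 979 and 988 CPM in control hearts. Its log2 change was -0.22 (SE 0.046, adjusted p = 0.00829, edgeR). Mdh1, the cytosolic malate dehydrogenase (log2 -0.23), Got1 (-0.23) and Gpd1, the cytosolic glycerol phosphate dehydrogenase (-0.38), fell as well. The list's median was -0.22. Slc25a11 fell beside these enzymes, while Slc25a12 and Slc25a13 were not past the threshold.

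Among partners of nucleotide exchange 2 of 8 fell and 0 rose. Both that fell lie at 50 CPM or more, where 10.4% of all tested genes fell and 3.22% rose, while Nme4 on this list lies below. Ckmt2, the mitochondrial creatine kinase that receives ATP from the ADP/ATP exchanger, had 715, 746 and 698 CPM in edited hearts, against 922, 884 and 943 CPM in control hearts (log2 -0.35, SE 0.05, adjusted p = 0.00109, edgeR). Hk2, a hexokinase that binds mitochondria, fell by 0.23 on the log2 scale. Of 6 genes of the carnitine shuttle, Cpt2, the inner membrane acyltransferase that follows Slc25a20, fell (log2 -0.28) and Cpt1c, the form best known from brain, rose (0.35).

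Of 14 other transport proteins of mitochondrial membranes, 3 fell, namely both subunits of the pyruvate carrier, Mpc1 (log2 -0.19) and Mpc2 (-0.25), and the outer membrane channel Vdac1 (-0.24), and 1 rose, the sideroflexin Sfxn3 (0.33). Family members that go by other symbols held 1 fall in 5, Ucp2, an uncoupling protein, at 305.0 ± 24.9 CPM in edited hearts and 363.6 ± 19.96 CPM in control hearts (SD, n = 3 each; log2 -0.25, adjusted p = 0.026, edgeR), while Ucp3, Mtch1 and Mtch2 were not past the threshold. Of 8 genes of iron and haem and 7 of mitochondrial folate, glycine and pyrimidine metabolism 0 were past it (edgeR). At an unadjusted p below 0.05 were 4 and 1 of them, where 3633 of all 14879 tested genes were. Over all lists 11 of 55 tested genes fell (20%) and 2 rose (3.64%). These counts became 1 and 0 when control 3 was left out, where 1.31% of all tested genes fell and 1.24% rose. Leaving out control 1 gave 5 and 2 (2.39% and 2.68% of all tested genes). Leaving out edited 3 gave 6 and 1 (2.15% and 2.72%), and leaving out control 2 gave 11 and 0 (3.91% and 4.36%). They were 0 and 0 with control 2 as the only control (edgeR).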

How the data were processed

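RNA of mouse heart was sequenced in 3 edited and 3 control libraries. The authors deposited 1 table of raw counts per gene. Per the submitters' processing notes, the tools were cutadapt, FastQC, featureCounts and STAR and the genome mm10. The sources used here give no versions, strand setting or treatment of multi-mapping reads. The deposited counts come in 2 columns per library, which differed in 0 values, so the first was used. Exon lengths come from the deposited table, and the per-kilobase values were computed from them.

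The members and lists were chosen with earlier results of these data known. Genes were kept by filterByExpr, which left 14879, and libraries scaled by TMM (factors 0.971 to 1.039). Groups were compared with edgeR 4.0.16 (robust quasi-likelihood, group as the only term, R 4.3.3), with Benjamini-Hochberg adjustment over all tested genes. Intervals are 95% and the SE is the log2 change over the root of the F statistic. Values per library are given for carriers past the threshold, the 5 highest per kilobase and paralog pairs, and partner genes are described where past the threshold. Replicates differed by more than sampling noise, with a chi-square over its degrees of freedom of 3.95 to 14.41 in genes of 20 counts or more. Alternatives used DESeq2 1.42.0 and limma 3.58.1, other scaling, filters, libraries and covariates. Only the edgeR fit was tested on simulated counts, with changes larger than those of the called carriers. Pseudogene copies were found with GENCODE M21 transcripts, and promoters are from RefSeq. The values of 1 carrier are not reported here, though the counts over the family include it.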

Additional observations from a re-analysis of the deposited data

How the results depend on the processing

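Of 16 alternatives, the number of carriers called lower was 2 with upper-quartile scaling, 2 with the replicate number as a block, 7 with limma voom, 0 when controls 1 and 3 were left out and 0 with Myl7 in the model, against 4; the number called higher was 3 with no filter, 2 with voom, 0 with control 2 as the only control and 0 with Myl7, against 1. Leaving out each library in turn gave 1 to 5 carriers lower and 0 to 1 higher. Over all tested genes, 4.74% were lower and 4.93% higher in the main fit. The shares were 3.57% and 5.71% with upper-quartile scaling, 3.07% and 4.17% with the block, and 7.33% and 8.02% with voom. They were 3.78% and 5.14% with no filter and 0.551% and 0.309% with Myl7. With 1 library left out, 1.31% to 5.04% of all tested genes were lower and 1.24% to 6% higher. The higher counts with no filter include Slc25a18 and Slc25a31, and the 1 higher without edited 2 was Slc25a31; both passed the level rule through the edited group alone, so their direction follows from that rule, and without them the counts were 1 and 0. The median log2 change of the carriers was -0.03 with upper-quartile scaling and -0.01 with no filter, against -0.05, and -0.05 to -0.03 with 1 library left out. Over all tested genes it was 0.03 with upper-quartile scaling and 0.02 with no filter, against 0. The fit with no filter held 46 carriers, against 39. Slc25a4, Slc25a11 and Slc25a34 stayed at -0.17, -0.26 and -0.33 in it. Among the added sparse carriers, Slc25a31, Slc25a43 and Slc25a18 (log2 1.44, 1.36 and 1.55) passed the level rule through the edited group alone. Slc25a4, Slc25a3, Slc25a11, Slc25a34 and Slc25a1 kept their direction in all 16, and lost the call in 10, 8, 2, 3 and 7 of them. The partner lists held 0 lower and 0 higher with Myl7 and also with control 2 as the only control; the higher count was 4 with no filter and 1 with DESeq2's test, and with 1 library left out the counts were 1 to 13 lower and 0 to 3 higher. Camk2d had a log2 change of -0.62 and lost its call with controls 1 and 3 left out (adjusted p = 0.0964). Small changes turned sign in uncalled carriers: with upper-quartile scaling Slc25a28 to 0 and Slc25a39 to 0.02; with controls 1 and 3 left out Slc25a5 to 0.02, Slc25a28 to 0.11, Slc25a25 to 0, Slc25a36 to -0.01 and Slc25a39 to 0.05; with Myl7 Slc25a5 to 0.04, Slc25a28 to 0.10, Slc25a25 to 0.01, Slc25a36 to -0.03 and Slc25a39 to 0.04. With 1 library left out these ranges were -0.09 to 0.02 for Slc25a28, -0.04 to 0.02 for Slc25a39, -0.01 to 0.04 for Slc25a37 and -0.01 to 0.04 for Slc25a36. The cause of these shifts was not tested. The deviations of same-numbered edited and control libraries correlated at 0.02, -0.10 and -0.08, so no pairing by replicate number was seen. With 3 libraries a group these values cannot show whether the libraries were handled in pairs. The alternatives for the partner lists and Camk2d were chosen after seeing the data. With 3 libraries a group, changes of the scarce carriers are known only within wide intervals.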

Other observations

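Ucp1, the family member that makes heat in brown fat, had 0.0426, 28.2 and 2.57 CPM in edited hearts, against 0.179, 2.69 and 0.157 CPM in control hearts, and was not past the threshold (adjusted p = 0.452, edgeR). The fat cell markers Adipoq, at 0.128, 2.71 and 0.67 CPM in edited hearts, against 0.0598, 0.211 and 0 CPM in control hearts, and Plin1, at 0, 3.51 and 0.391 CPM in edited hearts, against 0, 0.263 and 0 CPM in control hearts, were also highest in edited 2. Other genes listed as markers of fat went otherwise. Dio2 was at 10.6, 6.90 and 9.21 CPM in edited hearts, against 4.73, 4.32 and 3.29 CPM in control hearts, and rose (log2 1.13, adjusted p = 0.00226, edgeR). Cox7a1, which heart muscle also makes, fell (log2 -0.34, adjusted p = 0.011, edgeR), and Cfd was highest in edited 3, at 0.614 CPM. Slc25a1 was highest in edited 2. Over 5 brown fat markers the summed level was 146 to 182 CPM in edited hearts and 159 to 193 CPM in control hearts. Most of it came from Cox7a1 and Cidea, with Elovl3 at 0 in all edited libraries. Because heart muscle makes Cox7a1, the sum is no clear measure of brown fat. Over 6 fat cell markers it was 542 to 573 CPM in edited hearts and 530 to 613 CPM in control hearts, nearly all from Fabp4, which other cells of the heart also make, with Retn at 0 in every library. Their part in the rise of Slc25a1 was not tested, and without edited 2 its log2 change was 0.32 (adjusted p = 0.081).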
